A study of Mus musculus with 16 samples.

Results

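The genes described here are 10 genes of the unfolded protein response and the integrated stress response, measured in the liver of conventional mice after gut microbiota transfer. They were taken by name, as every probe of the array whose gene name was Hspa5, Xbp1, Ddit3, Atf4, Atf3, Trib3, Herpud1, Dnajb9, Sdf2l1 or Creld2. These 10 genes are covered by 18 of the 56605 probes and are 10 of the 37074 gene names on the array. All 18 probes were well above background on all 16 arrays, none of their 288 values was saturated and 0 were marked as outliers, so that no member was lost to the filter on dim probes that left 20403 genes for testing.

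The mice were C57BL/6 males, 6 weeks old at the start and 10 weeks old at sampling, and in the 4 weeks between they ate normal chow (NC). No antibiotic was given to any of them. There were 6 Conv + PBS mice (mice 1 to 6), which received the vehicle, 5 Conv + LM mice (mice 13 to 17), which received caecal content of lean mice, and 5 Conv + OM(HFD) mice (mice 25, 26, 28, 29 and 30), which received caecal content of mice made obese by a high-fat diet. The sample labels call the Conv + PBS mice not transplanted, while the methods of the study state that they were given reduced PBS. Donor caecal content was pooled within each donor group, recipients were housed in groups on an inverted light cycle, and livers were taken after a short fast. Cages are not named in the labels, so that cage and treatment cannot be told apart, and p-values measure the spread between these mice. Each liver was read on 1 Agilent array with 1 colour, and the arrays lay on 2 slides with every group on both. All 8 hepatocyte markers listed (among them Alb, Ttr and Hnf4a) were above background, with a mean level between 8.36 and 8.84 in every mouse. In whole liver, fewer cells of a type and less RNA per cell cannot be told apart.

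The endoplasmic reticulum (ER) folds the proteins that hepatocytes secrete. When unfolded protein builds up there, the sensors IRE1, ATF6 and PERK start the unfolded protein response: IRE1 splices the mRNA of the transcription factor XBP1, ATF6 is cut and moves to the nucleus, and PERK phosphorylates eIF2α. Phosphorylation of eIF2α, by PERK or by kinases that sense lack of amino acids, viral RNA or haem, is the core of the integrated stress response, in which most translation is lowered while ATF4 is made. The liver uses both programs under feeding and fasting as well as under toxic stress. An array of this kind measures total mRNA, so neither the splicing of Xbp1 nor the translation of Atf4 is seen.

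Among the members, Hspa5 (BiP, the main ER chaperone), Dnajb9 (a co-chaperone of BiP), Sdf2l1 (an ER protein of the BiP complex) and Creld2 (a secreted ER stress protein) belong to the folding arm, and Herpud1 to the degradation of ER proteins. Xbp1, Atf4, Ddit3 (CHOP) and Atf3 are transcription factors. Trib3 is a pseudokinase induced by ATF4 and CHOP that can bind AKT.

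Promoters are shown because the folding genes are known targets of ER stress response elements. RefSeq promoters (GRCm38.p6, from 250 bases before the start site to the end of a window of 300 bases) were given for all 10 members. The ER stress response elements ERSE and ERSE-II, each of a CCAAT box and a CCACG box, and the element bound by ATF4 with its partners, TGATGCAA (CARE), were searched on both strands. The stretches that hold them are printed 5′ to 3′ on the strand of the gene, with the fixed letters of the element in capitals:
Hspa5, chr2:34772005-34772063, plus strand: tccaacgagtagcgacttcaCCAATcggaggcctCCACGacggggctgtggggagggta
Creld2, chr15:88819500-88819558, plus strand: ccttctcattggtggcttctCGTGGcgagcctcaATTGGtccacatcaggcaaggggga
Herpud1, chr8:94386357-94386407, plus strand: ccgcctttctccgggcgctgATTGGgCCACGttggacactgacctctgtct
Atf3, chr1:191183416-191183463, minus strand: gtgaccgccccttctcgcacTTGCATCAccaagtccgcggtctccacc
The element of Hspa5 reads forward and that of Creld2 in reverse. ERSE was found in 2 of the 10 members and in 0.12% of all 32851 promoters, ERSE-II in 1 member (Herpud1) and 0.04%, and CARE in 2 members (Atf3 and Herpud1, the latter outside the stretch shown) and 0.89%. The elements TGACGTGG (UPRE, 0.68% of promoters) and TGACGTCA (CRE, 1.79%) were found in no member within these windows. Of the motifs of the clock, the E-box CACGTG (7.15% of promoters) was found in Dnajb9 alone and the D-box TTATGNAA (3.38%) in no member. Neither ERSE nor ERSE-II was found in the folding genes Sdf2l1 and Dnajb9. All of these are matches of letters, and binding was not measured. The part of the elements in the relations between members described below was not tested.

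Signals are given as log2 of the background-corrected intensity over the 75th percentile of the same array, so that a level can be compared between mice for 1 probe but not between genes. Where a gene had several probes, the brightest stood for it. The question put to the groups was whether transfer of lean or obese microbiota changed these genes in NC-fed mice. No member differed between groups once p was adjusted for all genes tested, and the same was true of all 20403 genes tested in the 3 comparisons. The groups overlapped for all 10 members in every comparison, as seen in the plot of the members by mouse, and only 0.24% (Conv + OM(HFD) vs. Conv + PBS), 0.279% (Conv + LM vs. Conv + PBS) and 0.466% (Conv + OM(HFD) vs. Conv + LM) of all genes had groups that did not.

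**Figure D1:**
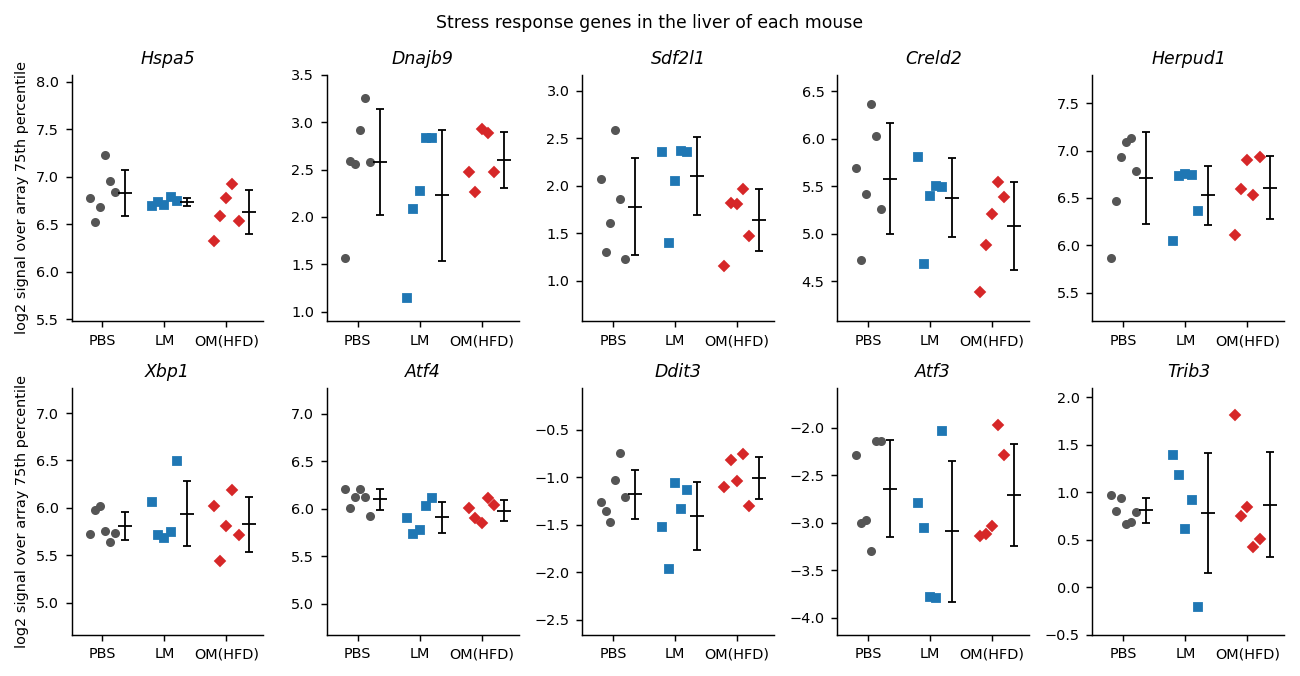
Signal of the 10 members (y axis, log2 over the 75th percentile of the array) in each of the 16 mice, by group. Points are mice, horizontal ticks with bars are group means ± SD (n = 6, 5 and 5), and every panel spans the same log2 range; the groups overlap for every gene, and Trib3 has an SD of 0.13 in Conv + PBS mice against 0.63 after lean and 0.55 after obese transfer.

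In Conv + OM(HFD) vs. Conv + PBS mice, 0 of the 10 members had an unadjusted limma p under 0.05, where 3.27% of all genes had one. Of the members, 6 were lower and 4 higher, with log2 fold changes from -0.50 to 0.17 and a median of -0.09, against 0.00 over all genes. Creld2 had the smallest p. Its signal was 4.72, 5.55 and 6.36 (lowest, median and highest) in Conv + PBS mice and 4.39, 4.88, 5.21, 5.54 and 5.39 in Conv + OM(HFD) mice. Mouse 25 was lowest of all and mouse 4 highest, with the other Conv + OM(HFD) mice inside the range of the controls. The difference was -0.50 ± 0.28 (log2, SE), or -29.2%, with a 95% interval from -1.10 to 0.10 (limma p = 0.0987, exact permutation p = 0.152), and it was -0.39 on slide 1 and -0.56 on slide 2. Hspa5 was at 6.52, 6.81 and 7.23 in Conv + PBS mice and 6.32, 6.59, 6.77, 6.92 and 6.53 in Conv + OM(HFD) mice. Its difference was -0.20 ± 0.12, or -13.2%, with an interval from -0.46 to 0.05 (limma p = 0.112, exact permutation p = 0.197), and it was -0.17 on slide 1 and -0.19 on slide 2. The other 2 probes of Hspa5 gave -0.20 and -0.26. Without mouse 2, the lowest control for both genes, Creld2 was at -0.67 and Hspa5 at -0.27, and both then had an unadjusted limma p under 0.05. Hspa5 also had one without mouse 29 (-0.28) and with normexp background correction (-0.23). Both shrank without mouse 25 (Creld2 -0.32, Hspa5 -0.13), without mouse 4 (-0.34 and -0.13) and with array weights (-0.33 and -0.11).

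In Conv + LM vs. Conv + PBS mice, 1 of the 10 members had an unadjusted limma p under 0.05, where 3.95% of all genes had one (2.23% lower and 1.72% higher). It was Atf4, the transcription factor at the centre of the integrated stress response. Its signal was 5.93, 6.13 and 6.21 (lowest, median and highest) in Conv + PBS mice and 5.90, 5.74, 5.78, 6.03 and 6.12 in mice 13 to 17. Mice 13, 14 and 15 lay below all controls, and mice 16 and 17 among them. The difference was -0.19 ± 0.09, or -12.3%, with an interval from -0.37 to -0.01 (limma p = 0.0445, adjusted p = 0.997, exact permutation p = 0.0498), and it was -0.27 on slide 1 and -0.14 on slide 2. The smallest p that a permutation of 6 and 5 mice can give is 0.00217. The second probe of Atf4, whose deviations correlated with those of the first by only 0.222, gave -0.03 (limma p = 0.813). The p of Atf4 was over 0.05 when any of mice 1, 3, 4, 5, 13, 14 or 15 was left out, with a highest p of 0.121 and differences from -0.24 to -0.15 over all mice left out in turn.

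The other members of this comparison had no p under 0.05. In all, 8 were lower and 2 higher in Conv + LM mice, with a median of -0.19, against -0.01 over all genes. Atf3, a factor induced by many stresses, was at -2.64 ± 0.51 (SD, n = 6) in Conv + PBS and -3.09 ± 0.74 (SD, n = 5) in Conv + LM mice, with mouse 17 as the highest Conv + LM mouse at -2.03. The difference was -0.45 ± 0.34 (exact permutation p = 0.24), and it ran from -0.72 without mouse 17, with an unadjusted limma p under 0.05, to -0.28 without mouse 15 or 16. Sdf2l1 was on the other side of zero, at 0.32 ± 0.25 (exact permutation p = 0.277), and it ran from 0.22 without mouse 6 to 0.49 without mouse 4, with an unadjusted limma p under 0.05, and 0.50 without mouse 14. With array weights Sdf2l1, not Atf4, was the member with such a p.

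In Conv + OM(HFD) vs. Conv + LM mice, 1 of the 10 members had an unadjusted limma p under 0.05, where 2.71% of all genes had one (1.56% higher). It was Ddit3, which codes for CHOP, the factor of the late, pro-apoptotic phase of ER stress. Its signal was -1.53, -1.97, -1.06, -1.34 and -1.14 in mice 13 to 17 and -1.10, -0.82, -1.04, -0.76 and -1.30 in the Conv + OM(HFD) mice. Mouse 14 was lowest and mouse 29 highest, and the groups overlapped. The difference was 0.40 ± 0.17, or 32% higher, with an interval from 0.03 to 0.77 (limma p = 0.0352, adjusted p = 0.9995, exact permutation p = 0.0556), and it was 0.60 on slide 1 and 0.39 on slide 2. The smallest p that a permutation of 5 and 5 mice can give is 0.00794. This probe was designed to a transcript other than the RefSeq mRNA, and the probe for the RefSeq mRNA gave 0.08, its deviations correlating with those of the first by 0.455. Without mouse 14 the difference was 0.26, and the limma p was over 0.05 without mouse 13, 14, 26 or 29.

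Of the remaining members, Sdf2l1 had the next smallest p, with -0.46 ± 0.26 (exact permutation p = 0.111). It was at 2.35, 1.40, 2.05, 2.36 and 2.35 in mice 13 to 17 and at 1.15, 1.82, 1.81, 1.97 and 1.47 in the Conv + OM(HFD) mice. Mouse 14 was the only Conv + LM mouse inside the range of the Conv + OM(HFD) mice, and without it the difference was -0.63 with an unadjusted limma p under 0.05, while without mouse 25 it was -0.34. Across this comparison 6 members were higher and 4 lower, with a median of 0.08, against 0.01 over all genes. The comparisons share mice, so that their values are not independent of each other.

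**Figure D2:**
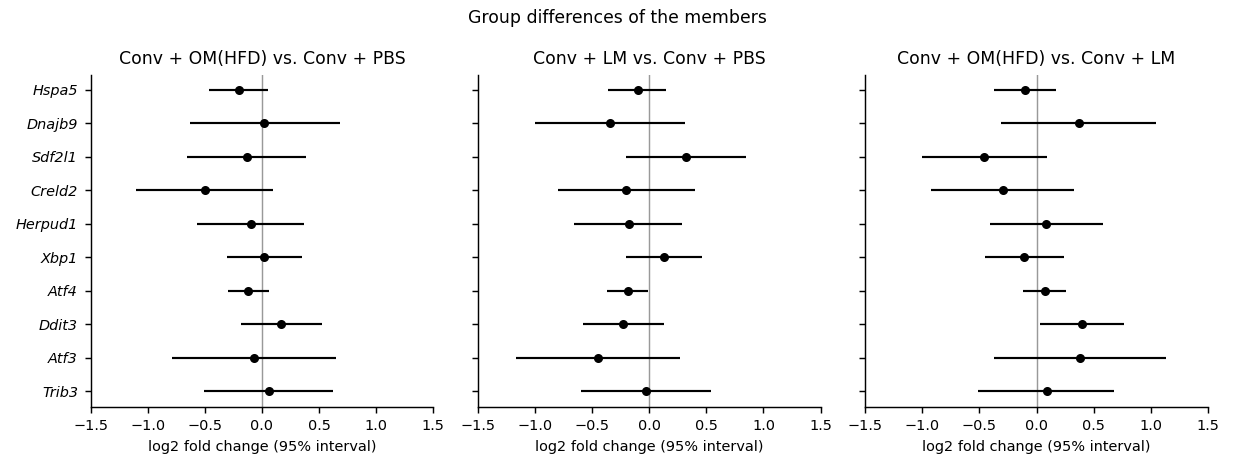
Log2 fold change (x axis) of the 10 members (y axis) in the 3 comparisons, with points for the limma estimate and lines for its 95% interval. The interval leaves out 0 for Atf4 in Conv + LM vs. Conv + PBS (-0.19) and for Ddit3 in Conv + OM(HFD) vs. Conv + LM (0.40), before adjustment over all genes.

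The members differed in their spread between mice. The SD within groups was 0.60 for Atf3, 0.54 for Dnajb9, 0.50 for Creld2, 0.47 for Trib3, 0.43 for Sdf2l1, 0.39 for Herpud1, 0.28 for Ddit3, 0.26 for Xbp1, 0.20 for Hspa5 and 0.13 for Atf4, with a median of 0.24 over all genes. Dnajb9 spanned 4.28-fold and Trib3 4.06-fold between the lowest and the highest of the 16 mice, while Atf4 spanned 1.38-fold. Mouse 4 was highest and mouse 25 lowest of all mice for Hspa5, Sdf2l1 and Creld2 alike. No value of a member lay apart from its group by the gap test described with the processing.

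Coordination was described by Pearson's r of the deviations of the 16 mice from their group means, for all 45 pairs of members. Of these, 30 were positive and 15 negative, with a median r of 0.137, and 9 had a permutation p under 0.05. For scale, over all genes the median r was 0.035 with Hspa5 and -0.066 with Trib3, and 10.3% and 16.7% of genes had an unadjusted limma p under 0.05 with them. By that limma p, which is another test than the permutation, 2 of the other 9 members were under 0.05 with Hspa5 and 1 of 9 with Trib3. A first principal component held 39.9% of the variance of the members, with the largest loadings on Creld2 (0.42), Sdf2l1 (0.41) and Hspa5 (0.40) and with Trib3 opposite (-0.36). A second held 21.4% and set Xbp1 (0.50), Atf3 (0.42) and Atf4 (0.38) against Herpud1 (-0.55) and Dnajb9 (-0.28).

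The 3 pairs with the highest r were those among the folding genes Sdf2l1, Creld2 and Hspa5. Sdf2l1 and Creld2 had r = 0.853 (permutation p = 4.00e-04, Spearman's rho = 0.726, p = 0.00493), and r = 0.756 without mice 4 and 25, the 2 farthest from the median signal of Sdf2l1. Here and below, the mice farthest out were found from the signal or score itself over all mice, not from the deviations. The relation was seen on slide 1 (r = 0.897) and on slide 2 (r = 0.871), and r was 0.884 among Conv + PBS mice, 0.944 among Conv + LM mice and 0.697 among Conv + OM(HFD) mice. Hspa5 and Creld2 had r = 0.759 (permutation p = 0.0022, rho = 0.647, p = 0.0209), and 0.542 without the 2 mice farthest out. This pair was at r = 0.681 on slide 1 and 0.898 on slide 2, and at 0.913 among Conv + PBS and 0.816 among Conv + OM(HFD) mice, but at -0.207 within Conv + LM mice, where Hspa5 moved only between 6.69 and 6.79. Hspa5 and Sdf2l1 had r = 0.691 (permutation p = 0.00461, rho = 0.535, p = 0.0533; 0.609 and 0.643 on the slides, and 0.779 in Conv + PBS, 0.092 in Conv + LM and 0.926 in Conv + OM(HFD) mice), which was 0.373 without the 2 mice farthest out and so rested in part on those mice. None of these pairs passed when the fit was made over all genes: with Hspa5 as the covariate, 0 of 20402 genes had an adjusted p under 0.05 and 10.3% an unadjusted p under 0.05, and Creld2 ranked 55 and Sdf2l1 204 by r. With Sdf2l1 as the covariate, Creld2 ranked 12 by r (limma adjusted p = 0.156). With Creld2 as the covariate, Sdf2l1 ranked 6 (limma adjusted p = 0.23).

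**Figure D3:**
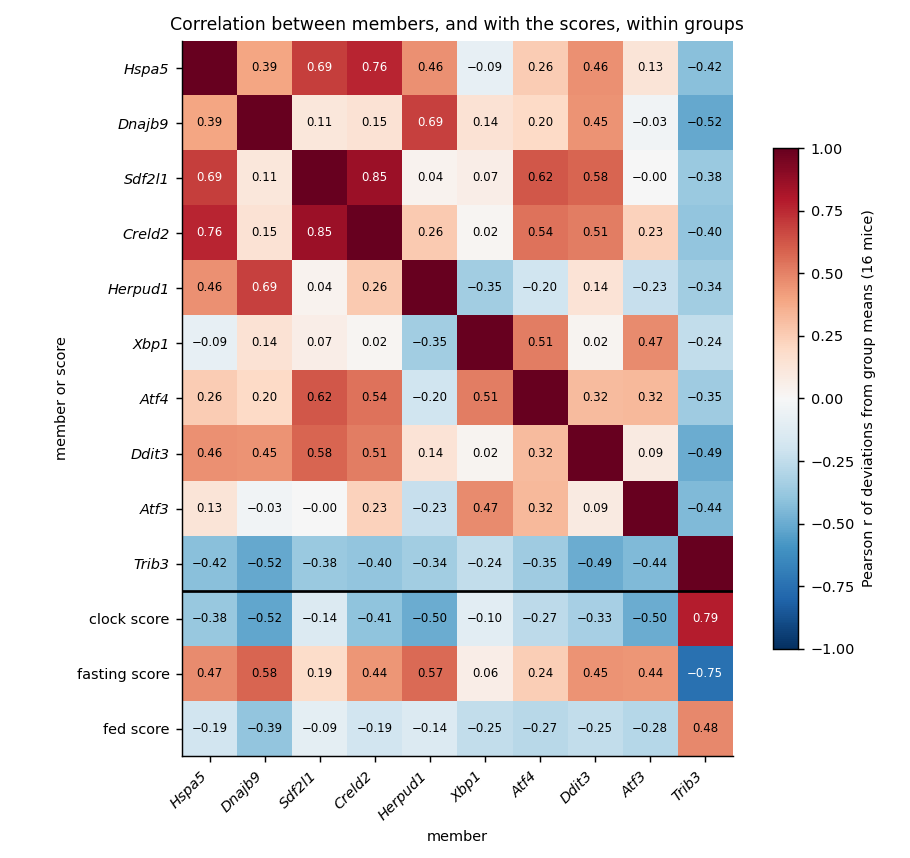
Pearson's r of deviations from group means over the 16 mice, between the members (upper square) and between members and the clock, fasting and fed scores (lower 3 lines, y axis). Red is positive and blue negative; Sdf2l1, Creld2 and Hspa5 form a positive block (0.85, 0.76 and 0.69), and the column of Trib3 is negative against the other 9 members.

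A second pair was Herpud1 and Dnajb9, a protein of ER-associated degradation and the BiP co-chaperone ERdj4. They had r = 0.685 (permutation p = 0.00946, rho = 0.544, p = 0.0328). Herpud1 was lowest in mice 1 and 13, at 5.87 and 6.05, and Dnajb9 was lowest in the same mice, at 1.57 and 1.15. Without mice 1 and 13, r was 0.221, so the relation rested on those mice. It was 0.702 on slide 1 and 0.712 on slide 2, and 0.932 in Conv + PBS, 0.608 in Conv + LM and 0.272 in Conv + OM(HFD) mice. With Hspa5, the chaperone it assists, Dnajb9 had r = 0.391 (permutation p = 0.105) and rho = 0.656 (permutation p = 0.00395), with r = 0.681 on slide 1 and 0.794 on slide 2, and 0.396 in Conv + PBS, 0.813 in Conv + LM and 0.722 in Conv + OM(HFD) mice. Dnajb9 had r = 0.113 with Sdf2l1 and 0.147 with Creld2. Without the same mice 1 and 13, these values were 0.645 and 0.672.

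The brightest probes of some of the transcription factors were related to the folding genes as well. Deviations of the other probe followed those of the brightest by only 0.222 for Atf4 and 0.455 for Ddit3. The relations of these other probes to the folding genes were not computed. Atf4 had r = 0.622 with Sdf2l1 (permutation p = 0.0161) and 0.542 with Creld2 (permutation p = 0.0373), which were 0.50 and 0.447 without mice 14 and 15, and Ddit3 had r = 0.579 with Sdf2l1 (permutation p = 0.031) and 0.458 with Hspa5 (permutation p = 0.0474). These relations were not seen in every group, with r = -0.101 for Atf4 and Sdf2l1 among Conv + OM(HFD) mice and 0.035 for Ddit3 and Hspa5 among Conv + LM mice. By slide, r was 0.31 and 0.753 for Atf4 and Sdf2l1, 0.499 and 0.687 for Atf4 and Creld2, 0.662 and 0.276 for Ddit3 and Sdf2l1, and 0.521 and 0.513 for Ddit3 and Hspa5. Xbp1 was at -0.085 with Hspa5, 0.07 with Sdf2l1 and 0.02 with Creld2. Atf4 and Ddit3, which follow each other in the integrated stress response, had r = 0.315 (permutation p = 0.32).

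**Figure D4:**
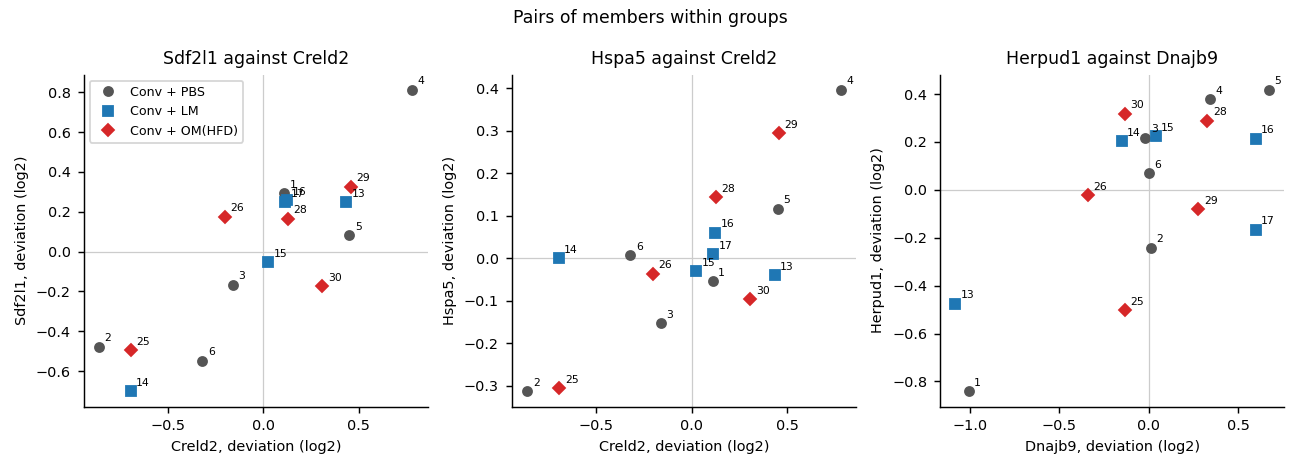
Deviations from the group mean (log2, both axes) of Sdf2l1 against Creld2, Hspa5 against Creld2 and Herpud1 against Dnajb9, with mice numbered and groups by colour and shape. In the first panel the mice lie along a line from mice 2, 14 and 25 to mouse 4 (r = 0.853), and in the third mice 1 and 13 lie apart at the lower left (r = 0.685, and 0.221 without them).

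Trib3 ran against the rest. All 9 of its pairs were negative, from -0.243 with Xbp1 to -0.515 with Dnajb9, while 30 of the 36 pairs without Trib3 were positive. This sign was not kept for every pair: without mice 17 and 29, the farthest out by the signal of Xbp1 and of Atf3 alike, r was 0.659 with Xbp1 and 0.053 with Atf3. By slide, r was positive with Xbp1 (0.674), Atf4 (0.17) and Ddit3 (0.079) on slide 1 and with Herpud1 (0.08) on slide 2. With Hspa5, Atf3, Dnajb9, Sdf2l1 and Creld2 it was negative on both slides. By Pearson's r, Hspa5 and Trib3 (r = -0.417) had a permutation p under 0.05 among these 9 pairs (p = 0.0295), and r was -0.13 without mice 4 and 25. By Spearman's rho, Hspa5 (-0.476, permutation p = 0.0393), Ddit3 (-0.591, permutation p = 0.0308) and Dnajb9 (-0.585, permutation p = 0.0313) did. Without the mice farthest out, Trib3 was at r = -0.603 with Dnajb9 (mice 25 and 17) and -0.472 with Ddit3 (mice 14 and 5). With Trib3 as the covariate, 0 of the other 9 members had an adjusted p under 0.05, where 0.49% of all genes had one. Trib3 is coded on chromosome 2, and its probe lies at chr2:152163161-152163220 (mm9, minus strand).

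Variation of the clock was scored from genes outside the members. The clock score is the mean of 9 genes of the output and period arms of the clock (Dbp, Tef, Nr1d1, Nr1d2, Per1, Per2, Per3, Ciart and Usp2) minus the mean of 4 genes of the opposite phase (Arntl, Clock, Cry1 and Nfil3), each centred, and Bhlhe41 and Npas2 were not above background. It ran from -1.48 in mouse 30 to 1.02 in mouse 13, with low and high mice in every group. The fasting score is the mean of 14 genes of the fasting liver, mainly PPARα targets such as Pdk4, Cyp4a14, Acot1 and Ehhadh, and the fed score the mean of 13 lipogenic and glycolytic genes such as Srebf1, Fasn, Acly and Pklr. Within groups the clock score and the fasting score had r = -0.948 (permutation p = 1e-05, the smallest that 100000 permutations can give), and the clock score and the fed score 0.666 (permutation p = 0.00876). The clock and fasting scores cannot be told apart in these mice, and the times at which single mice were sampled are not in the labels.

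Trib3 was the only member tied to the clock score, with 1 of 10 members at an adjusted p under 0.05 where 8.29% of all genes (1690 of 20390) had one. The count of members was thus near the share over all genes. The signal of Trib3 was 0.67, 0.80 and 0.97 (lowest, median and highest) in Conv + PBS mice. It was 1.39, 1.18, 0.61, 0.92 and -0.21 in mice 13 to 17, and 1.81, 0.75, 0.84, 0.42 and 0.51 in mice 25, 26, 28, 29 and 30. The clock scores of mice 13 to 17 were 1.02, 0.69, -0.02, 0.02 and -1.11, and those of mice 25, 26, 28, 29 and 30 were 0.92, 0.11, 0.09, -0.60 and -1.48. The clock scores of mice 1 to 6 were 0.72, 0.87, 0.22, -0.09, -0.31 and -1.04. The mouse with the highest score had the highest Trib3 in both transfer groups but not in the controls, where mouse 2 (highest score) had 0.80 and mouse 6 (lowest score) 0.79. Mouse 17, with the lowest score among Conv + LM mice, had the lowest Trib3 of all.

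Trib3 rose by 0.46 ± 0.10 (log2, SE) for each unit of the clock score within groups (limma adjusted p = 0.0118), with r = 0.786 (permutation p = 2.90e-04) and rho = 0.829 (permutation p = 1.50e-04). Without mice 30 and 17, the farthest out on the score, r was 0.688. The relation was positive on slide 1 (0.831) and slide 2 (0.692), with r = 0.465 among Conv + PBS mice, 0.982 among Conv + LM mice and 0.826 among Conv + OM(HFD) mice. The slope within each group was 0.08, 0.75 and 0.51 in the same order, and the difference between these slopes was not tested. The adjusted p was 0.0585 without mouse 17 (slope 0.36) and 0.0509 without mouse 25 (slope 0.37). Without both, the slope was 0.21 ± 0.08 and r 0.632 over 14 mice, with an adjusted p of 0.236 in limma. The number of genes tied to the score fell as well, to 1072 without mouse 17, 895 without mouse 25, 1109 without mouse 6 and 249 without mice 17 and 25. With Arntl alone in place of the score the slope of Trib3 was -0.33 (limma adjusted p = 0.0215), and with Dbp alone 0.43 (limma adjusted p = 0.0176).

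The other 9 members had the opposite sign, with r from -0.102 (Xbp1) to -0.517 (Dnajb9), and none passed the adjusted threshold. Herpud1 and Atf3 were both at -0.499, Creld2 at -0.406, Hspa5 at -0.381, Ddit3 at -0.333, Atf4 at -0.265 and Sdf2l1 at -0.138. Without mice 30 and 17, Xbp1 (0.242) and Atf4 (0.058) turned positive and the other 7 stayed negative. On slide 1 Xbp1 (0.704) and Ddit3 (0.012) were positive, and on slide 2 Sdf2l1 (0.385), Creld2 (0.105) and Atf4 (0.04), so that 4 of the 9 were negative on both slides. Over all genes the median r was -0.087. Of these 9, Atf3 and Dnajb9 had an unadjusted limma p under 0.05, where 23.3% of all genes did.

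**Figure D5:**
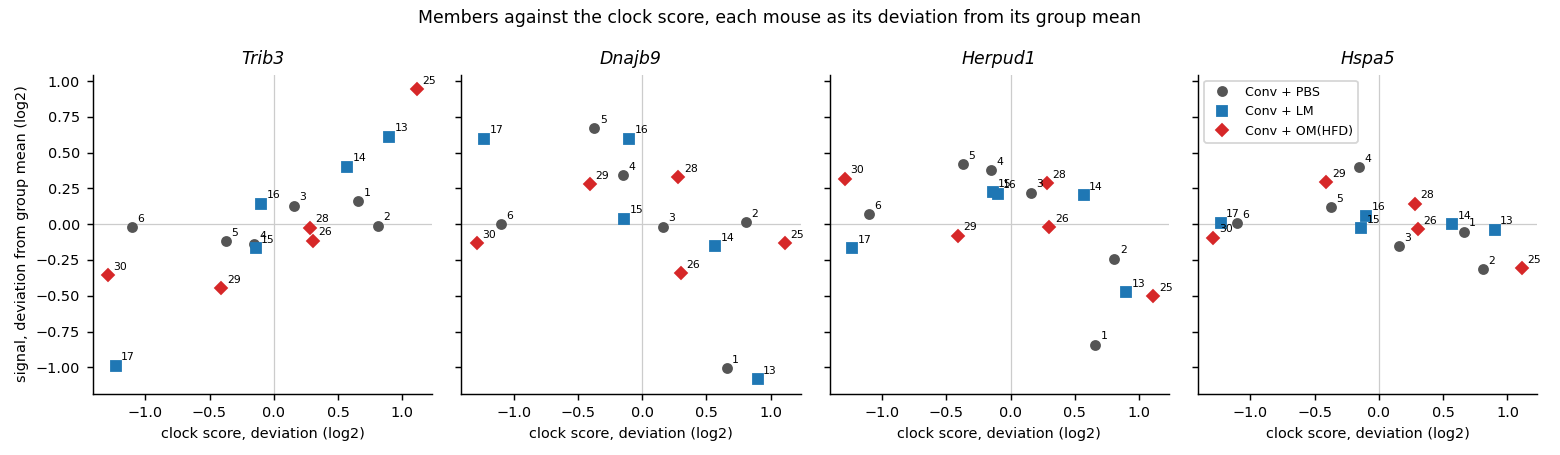
Deviation of Trib3, Dnajb9, Herpud1 and Hspa5 from the group mean (y axis, log2) against the deviation of the clock score (x axis, log2), with mice numbered and groups by colour and shape. Trib3 climbs with the score (r = 0.786) with mice 17 and 25 at the ends, while Dnajb9 (-0.517), Herpud1 (-0.499) and Hspa5 (-0.381) slope down.

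The fasting score gave the mirror image. Trib3 fell by 0.55 ± 0.13 (log2, SE) for each unit (limma adjusted p = 0.022, r = -0.746, permutation p = 2.50e-04, rho = -0.732, permutation p = 0.00142), and was the only 1 of 10 members tied to it, where 8.3% of all genes were (3.91% falling). This count of members was near the share over all genes as well. For Trib3, r was -0.678 on slide 1 and -0.59 on slide 2. The adjusted p of Trib3 was 0.0619 without mouse 13, 0.0747 without mouse 17 and 0.0912 without mouse 25, and 0.0715 with the slide as a block. The other 9 members had a positive r, up to 0.583 for Dnajb9 and 0.568 for Herpud1, and none passed. Of these, 4 were negative on 1 of the slides, Xbp1 on slide 1 (-0.703) and Sdf2l1 (-0.446), Atf4 (-0.14) and Creld2 (-0.137) on slide 2, and Xbp1 was at -0.286 without mouse 17. When the clock and the fasting score stood in the same fit, neither was tied to Trib3, with slopes of 0.46 for the clock score (limma adjusted p = 0.9999) and 0.00 for the fasting score (limma adjusted p = 0.9997), and 0 genes were tied to either.

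The fed score ran from -0.26 to 0.55 in Conv + PBS mice, -0.35 to 0.42 in Conv + LM mice and -0.46 to 0.06 in Conv + OM(HFD) mice, and 5 of its 13 genes were lower in Conv + OM(HFD) vs. Conv + PBS at an unadjusted limma p under 0.05 (where 1.74% of all genes were), with a median of -0.54. With the fed score, 0 of 10 members and 0 of 20390 genes (0%) were tied at an adjusted limma p under 0.05. At an unadjusted p under 0.05 these were 0 members and 14.4% of genes. The number of genes tied depended on the setting, with 297 under array weights, 5 with normexp and 4 with the authors' processed values, none of them a member. Trib3 had r = 0.479 (permutation p = 0.0956) and the other members r from -0.094 to -0.392.

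The genes most like Hspa5 within groups, outside the members, were Uggt1 (r = 0.915), which reglucosylates unfolded glycoproteins in the ER, AK010878 (0.856), Zfp511 (0.844), Srprb (0.829), a subunit of the receptor for the signal recognition particle, and Dnajc3 (0.828), another co-chaperone of BiP. Those most like Trib3 were Rilpl2 (0.933), Zfp281 (0.892), Dph7 (0.881), Tmem194 (0.88) and Sbk1 (0.876). These 5 had adjusted p-values from 0.0327 to 0.0417 in limma, but with the slide as a block 0 genes were tied to Trib3, and the 5 genes most like Hspa5 had an adjusted p of 0.324.

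Other genes of the pathways were taken from 5 lists, with 75 of 78 genes above background. Of the 17 ER chaperones and folding enzymes tested, all 17 had a positive r with Hspa5, with a median of 0.614, against 0.035 over all genes. They included Dnajb11 (0.754), Pdia6 (0.745), Pdia3 (0.696) and Calr (0.677), and none was tied to Hspa5 at an adjusted p under 0.05. Of the 17 genes of ER-associated degradation and export, the median r with Hspa5 was 0.426, with Sec61a1 at 0.719 and Syvn1, the ubiquitin ligase HRD1, at 0.704. The 7 sensors and their proteases had a median of 0.348, the 7 eIF2 kinases and regulators 0.064 and the 27 ATF4 target genes 0.182. The highest values were thus in the list of folding enzymes, as a description of these mice.

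In the group comparisons few genes of these lists had an unadjusted limma p under 0.05, and none passed adjustment over all genes. For Conv + OM(HFD) vs. Conv + PBS it was 1 of 17 folding genes, lower (where 1.74% of all genes were lower), and 2 of 27 ATF4 targets, higher (where 1.53% of all genes were). The former was Manf, a secreted ER stress protein, at -0.36 ± 0.14 (limma p = 0.0229, exact permutation p = 0.0541). The latter were the serine synthesis enzymes Phgdh, at 1.05 ± 0.49 (limma p = 0.0493, exact permutation p = 0.0173), and Psat1, at 0.89 ± 0.40 (limma p = 0.043, exact permutation p = 0.0952). Both enzymes were also at a higher mean after lean transfer, Phgdh by 0.96 ± 0.49 (limma p = 0.0713, exact permutation p = 0.0736) and Psat1 by 0.80 ± 0.40 (limma p = 0.0637, exact permutation p = 0.0346), and obese and lean transfer differed by 0.10 ± 0.52 and 0.08 ± 0.42. By the limma p, Conv + LM vs. Conv + PBS had none, among 75 genes, where 3.95% of all genes had such a p. For obese vs. lean transfer 3 genes were lower, where 1.15% of all genes were. They were Mbtps1, the site-1 protease that cuts ATF6, at -0.25 ± 0.08 (limma p = 0.00658, exact permutation p = 0.0159), Derl3, of ER-associated degradation, at -1.44 ± 0.61 (limma p = 0.0313, exact permutation p = 0.0635), and Wars, a tRNA synthetase, at -0.28 ± 0.12 (limma p = 0.036, exact permutation p = 0.00794).

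With the clock score, 5 of the 27 ATF4 targets were tied at an adjusted p under 0.05, 4 falling (where 4.33% of all genes fell) and 1 rising (where 3.96% rose). Those that fell were Cebpg (r = -0.846, adjusted p = 0.00752), a partner of ATF4, Tars (-0.816, adjusted p = 0.0105), a tRNA synthetase, Gdf15 (-0.797, adjusted p = 0.0088), a stress-induced hormone, and Fgf21 (-0.715, adjusted p = 0.0303), a hormone of the fasting liver that is also a PPARα target. The one that rose was Bbc3 (0.714, adjusted p = 0.0376), which codes for the pro-apoptotic PUMA. Over the whole list 14 of the 27 targets had a positive r with the score and 13 a negative one, with a median of 0.182, so that targets lay on the same side as Trib3 and on the other. No gene of the other 4 lists was tied to the clock score. The 3 with the largest r in each were Creb3l3 (-0.677), Atf6 (-0.547) and Ern1 (0.418) among the sensors, Dnajc3 (-0.686), Ero1l (-0.611) and Fkbp2 (-0.565) among the folding genes, Edem2 (0.599), Wfs1 (0.559) and Syvn1 (-0.537) in degradation and export, and Nck1 (-0.653), Eif2ak1 (-0.646) and Eif2ak2 (0.634) among the eIF2 genes. With the fasting score the same 5 targets were tied, where 4.39% of all genes rose and 3.91% fell. Gdf15 (r = 0.887, limma adjusted p = 0.00116), Cebpg (0.83, limma adjusted p = 0.00998), Tars (0.787, limma adjusted p = 0.0164) and Fgf21 (0.731, limma adjusted p = 0.0246) rose, and Bbc3 (-0.761, limma adjusted p = 0.0207) fell. From the other lists Dnajc3 (0.714, limma adjusted p = 0.0454) and Nck1 (0.748, limma adjusted p = 0.031) rose with it.

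Markers of other cells and of other stress moved with some of the members within groups. The mean of every such list was set against all 10 members, and only the larger values of r are given. No p-value was computed for them, and they were not recomputed by slide or without single mice. The mean of 10 heat shock genes had r = -0.786 with Trib3, 0.682 with Herpud1, 0.68 with Dnajb9 and 0.558 with Hspa5, and 7 of these 10 genes fell with the clock score at an adjusted p under 0.05, where 4.33% of all genes fell. This mean ran from 3.59 to 4.60 in the controls, 3.39 to 4.33 after lean and 3.39 to 4.46 after obese transfer. In Conv + LM vs. Conv + PBS, where 8 of the 10 members were lower, 3 of the 10 heat shock genes were lower at an unadjusted limma p under 0.05 (Hspa1a -1.04, Hspa1b -0.87 and Hspb1 -0.76), where 2.23% of all genes were, with a list median of -0.34. The mean of 10 Kupffer cell markers, all above background, had r = -0.616 with Herpud1, and ran from 0.74 to 3.15 in the controls, 0.43 to 1.17 after lean and 0.66 to 2.05 after obese transfer. That of 7 neutrophil markers (of 10, with Ltf, Retnlg and Cxcr2 not above background) had r = -0.52 with Herpud1 and 0.504 with Trib3, and ran from -1.76 to 1.73, -1.83 to -1.22 and -1.98 to 2.0 in the same groups. The neutrophil markers did not go together with Trib3. S100a8 (r = 0.491), S100a9 (0.506), Ngp (0.487), Camp (0.444) and Lcn2 (0.474) were positive, Mmp8 was at 0.036 and Csf3r at -0.613. The acinar cells of the pancreas express ER folding genes strongly, and 5 of 8 acinar markers (not Prss2, Cpa1 and Pnlip) were above background, with a mean from 0.32 to 0.72, 0.35 to 0.72 and 0.23 to 0.44. Its r was 0.64 with Sdf2l1, 0.55 with Creld2, 0.521 with Herpud1 and -0.583 with Atf3. The mean of 6 endothelial markers had r = 0.569 with Herpud1 and -0.572 with Xbp1, that of 6 bile duct markers 0.515 with Herpud1, and that of 5 B and plasma cell markers (of 6, with Cd79a not above background) -0.568 with Herpud1. The mean of 6 stellate cell markers had r = 0.543 with Xbp1 and -0.544 with Trib3, and that of 11 immediate early genes 0.561 with Atf4. The endothelial mean ran from 0.72 to 1.16, 0.54 to 1.11 and 0.52 to 1.08 in the controls and after lean and obese transfer, the stellate mean from -0.11 to 0.62, 0.02 to 0.99 and 0.16 to 0.74, the bile duct mean from -2.73 to -1.91, -2.52 to -2.02 and -3.49 to -1.73, and the B and plasma cell mean from -3.73 to -2.17, -3.06 to -2.49 and -3.11 to -1.91. The part of these cells and genes in the variation of the members was not tested.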

How the data were processed

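Liver RNA of 16 mice was hybridized to Agilent arrays, 1 per mouse, by the authors, who read the spots with Agilent Feature Extraction 10.10.1.1 (per the file headers). The deposited intensity values are background-corrected and were not scaled across arrays by the authors. A deposited set of log2 values matched log2 of the median signal after quantile normalization (medians 5.49 to 5.52) and was an alternative. Groups came from the labels.

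Control spots and outlier flags (0.188% of values) were left out, and log2 of each array's 75th percentile (intensity 223.1 to 323.7) was subtracted. A probe had to be well above background on 5 or more arrays, and the brightest stood for its gene. All 3 groups entered 1 linear model (limma 3.58.1, R 4.3.3), with scores or members as a covariate where stated and the score's own genes left out. P-values were adjusted over all genes tested (Benjamini-Hochberg). Permutation tests were two-sided, exact between groups and with 100000 permutations within groups for correlations, whose p-values are not adjusted over the 45 pairs and 30 relations with scores (Python 3.11.15, numpy 2.4.6, scipy 1.17.1, pandas 2.3.3, matplotlib 3.10.9). The highest and lowest mouse of each group were set against Dixon's 95% value (39 groups, 0 gaps). The fits were tested on simulated data. The number of arrays limits the precision.

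The members and lists were chosen with earlier results of these data known. Named were the members, genes of the pathway lists with an unadjusted p under 0.05 or the 3 largest r with the clock score, and the 5 genes most like Hspa5 or Trib3. Other genes of the lists were named after their values were seen. Alternatives were the background correction (normexp, offset 50), normalization, filter, probes, slide block, array weights, mice in the fit, test, scores as covariates, and each mouse left out. Leaving out mice 17 and 25 together was chosen after seeing the data.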

Additional observations from a re-analysis of the deposited data

How the results depend on the processing

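No paired analysis was possible because no mouse number occurs in more than 1 group. With 5 or 6 arrays a group, differences of the size of these SDs could not be settled. The number of members at an unadjusted p under 0.05 was 1 in place of 0 with normexp in Conv + OM(HFD) vs. Conv + PBS. In Conv + LM vs. Conv + PBS it was 0 in place of 1 with the authors' processed values, no filter, the mean of all probes, only the mice compared, and the fasting score as a covariate. For Conv + OM(HFD) vs. Conv + LM it was 0 with the authors' processed values, the mean of all probes, the methods' t-test, the exact permutation test and the clock, fasting or fed score as a covariate, and 2 with array weights. The methods' t-test called 635, 759 and 616 genes unadjusted in the 3 comparisons and 0 adjusted, against 668, 806 and 553 in limma. Without each mouse in turn the counts ran from 0 to 2, 0 to 2 and 0 to 1. Trib3 kept its tie to the clock score in all other settings and lost it with the fasting score in the same fit (0 members), without mice 17 and 25 together (0), and in the range of 0 to 1 without each mouse. For the fasting score the count was 0 with no filter, the slide as a block, the clock score in the same fit and without mice 17 and 25, and 0 to 1 without each mouse. Of 734 fold changes recomputed, 43 reached or crossed zero, all of genes with no call. For Conv + OM(HFD) vs. Conv + PBS these were Atf3 (0.02 with array weights, 0.02 with normexp, -0.26 to 0.04 without each mouse), Sdf2l1 (0.02 with array weights, -0.24 to 0.03), Trib3 (-0.05 with array weights, 0.00 with the authors' processed values, -0.18 to 0.17), Xbp1 (-0.03 with array weights, -0.08 with the fed score, 0.00 with the mean of probes, -0.06 with another probe, -0.07 to 0.12), Dnajb9 (-0.06 with the clock, -0.07 with the fasting and -0.31 with the fed score, -0.07 with the mean of probes, -0.16 with another probe, -0.18 to 0.16), Ddit3 (-0.06 with the mean of probes, -0.30 with the other probe) and Herpud1 (0.04 with another probe, -0.27 to 0.03). In Conv + LM vs. Conv + PBS they were Trib3 (0.11 with the fed score, 0.01 with the slide block, -0.19 to 0.22) and Xbp1 (-0.01 to 0.19). For Conv + OM(HFD) vs. Conv + LM they were Herpud1 (-0.02 with the fasting score, -0.03 to 0.21), Atf4 (0.00 with the mean of probes, -0.08 with the other probe), Trib3 (-0.16 to 0.24) and Xbp1 (-0.19 to 0.03). The cause was not tested.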
